A study of Mus musculus with 3 samples.

Results

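The 4 nuclear factor I (NFI) genes of the mouse, Nfia, Nfib, Nfic and Nfix, were examined as places where the NFI proteins themselves may sit. Each gene was taken with 100 kb on both sides. Of the 39807 in vivo NFI sites that the authors deposited, 55 had their centre in these 4 loci. There were 20 at Nfia, 23 at Nfib, 6 at Nfic and 6 at Nfix, and 42 of the 55 lay inside the genes. The sites were dense along the 2 long genes, Nfia and Nfib, where they were spread over the introns. They were fewer in number at the more compact and GC-rich genes Nfic and Nfix, whose density could not be told from that of Nfia and Nfib. Relative to library size, the knock-out ChIP had about as many tags as the input over these sites. Among these 55 sites, the one with the most knock-out tags was in the first intron of Nfia, where 6 lay beside an exact NFI consensus.

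The series consists of 3 libraries from primary mouse embryonic fibroblasts of strain C57BL/6, taken from embryos of 14.5 days and grown to passage 6 to 7. NFI ChIP was done in wild-type cells and in NFI-C knock-out cells with the same antibody against the NFI group of proteins, and non-precipitated genomic DNA of wild-type cells served as the input. There was 1 library per group, so no test between groups was made, and the 95% intervals (exact binomial for ratios and shares, exact Poisson for counts) cover counting error only. The wild-type ChIP held 3350071 distinct tags, the knock-out ChIP 3132004 and the input 4100449, where a tag is the 5′ end of a uniquely mapped read counted at most once per position and strand. Each tag was read 2.92, 3.45 and 1.32 times on average in the same order. The knock-out removes 1 family member and leaves the genes of the other 3. The study's text says, of the knock-out cells used for expression arrays, that NFI-C was removed by insertional mutagenesis. No knock-out input was analysed here. For the knock-out library the title and the description disagree, the latter naming wild-type cells, and the title was followed here. No expression values were used here, so the labelled cell type was not checked against marker genes.

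NFI proteins bind DNA as dimers, either of 1 member or of different members, on a palindrome made of the half-sites TTGGCA and TGCCAA. The DNA-binding and dimerisation part is shared by all members and is encoded for the most part by a large exon near the start of each gene, while the C-terminal part, which acts on transcription, differs between members and between splice forms. In the mouse, Nfia is known for its part in forebrain and glial development, Nfib for lung maturation and brain development, Nfic for the growth of tooth roots, and Nfix for brain and skeletal development.

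On mm9, Nfia (ENSMUSG00000028565.11) lies on chr4:97439425-97868605 on the plus strand, and Nfib (ENSMUSG00000008575.10) on chr4:81936077-82351654 on the minus strand. Nfic (ENSMUSG00000055053.10) lies on chr10:80858931-80893750 and Nfix (ENSMUSG00000001911.9) on chr8:87223775-87324243, both on the minus strand. Their lengths were 429181, 415578, 34820 and 100469 bp. All 4 genes have a coding exon of 532 bp in most of their coding transcripts, and it encodes much of the DNA-binding part. Between the genes this exon was 75.8% to 82.0% identical in bases, with Nfic and Nfix the closest pair. Their longest identical stretch was 32 bp, which is shorter than the reads of 35 and 36 bp. No read could thus match this exon of 2 of the genes exactly over its whole length.

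Below are the 300 bp centred on the in vivo sites that the results turn on. They are sites whose window holds the palindrome with no more than 2 of its 12 fixed positions mismatched (TTGGCA, 3 free bases, TGCCAA), and among the sites inside each gene that had fewer than 5 input tags those highest in the wild-type ChIP, 2 of them at Nfix with equal tags. Capitals mark the palindrome matches and the exact half-sites.
Nfia site 2, chr4:97442968-97443267, plus strand: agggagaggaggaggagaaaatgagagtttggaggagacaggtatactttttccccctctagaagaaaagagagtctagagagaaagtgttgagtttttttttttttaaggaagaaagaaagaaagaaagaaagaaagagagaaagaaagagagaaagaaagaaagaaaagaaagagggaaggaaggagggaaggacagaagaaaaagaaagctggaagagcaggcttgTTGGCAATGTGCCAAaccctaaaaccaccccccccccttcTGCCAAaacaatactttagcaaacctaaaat
Nfic site 4, chr10:80879622-80879921, plus strand: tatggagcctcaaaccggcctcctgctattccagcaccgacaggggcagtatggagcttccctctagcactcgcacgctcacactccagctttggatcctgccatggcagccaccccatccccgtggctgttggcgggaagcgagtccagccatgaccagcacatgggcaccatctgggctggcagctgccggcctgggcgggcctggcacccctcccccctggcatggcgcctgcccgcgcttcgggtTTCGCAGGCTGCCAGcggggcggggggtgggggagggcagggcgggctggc
Nfia site 3, chr4:97473419-97473718, plus strand: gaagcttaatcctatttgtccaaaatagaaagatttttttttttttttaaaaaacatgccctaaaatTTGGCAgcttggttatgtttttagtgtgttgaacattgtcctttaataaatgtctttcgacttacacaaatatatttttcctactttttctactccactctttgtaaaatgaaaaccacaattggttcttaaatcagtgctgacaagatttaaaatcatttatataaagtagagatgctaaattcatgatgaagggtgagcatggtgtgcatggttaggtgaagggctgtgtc
Nfib site 18, chr4:82198075-82198374, plus strand: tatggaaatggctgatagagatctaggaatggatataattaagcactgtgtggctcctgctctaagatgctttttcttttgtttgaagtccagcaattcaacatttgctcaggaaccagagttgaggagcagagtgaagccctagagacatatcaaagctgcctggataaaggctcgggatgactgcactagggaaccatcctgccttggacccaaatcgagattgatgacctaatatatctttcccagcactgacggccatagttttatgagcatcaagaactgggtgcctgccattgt
Nfix site 5, chr8:87295519-87295818, plus strand: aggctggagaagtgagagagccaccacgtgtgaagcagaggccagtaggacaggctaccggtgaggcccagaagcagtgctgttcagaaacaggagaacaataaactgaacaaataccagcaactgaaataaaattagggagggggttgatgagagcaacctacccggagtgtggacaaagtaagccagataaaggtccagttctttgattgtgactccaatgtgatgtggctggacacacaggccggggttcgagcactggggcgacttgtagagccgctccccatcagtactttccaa
Nfix site 6, chr8:87310081-87310380, plus strand: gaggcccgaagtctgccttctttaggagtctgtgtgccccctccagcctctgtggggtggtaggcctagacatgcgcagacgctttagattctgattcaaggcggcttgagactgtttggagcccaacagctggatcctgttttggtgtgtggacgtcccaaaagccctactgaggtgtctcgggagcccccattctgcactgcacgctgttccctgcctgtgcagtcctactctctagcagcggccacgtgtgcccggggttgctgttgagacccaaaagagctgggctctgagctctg

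The palindrome matches shown differ in quality. Nfia site 2 contains TTGGCAATGTGCCAA, an exact match whose centre lies 87 bp from the site centre, and a further half-site downstream of it. Nfic site 4 contains TTCGCAGGCTGCCAG, with G3C and A15G, 107 bp from its centre. Positions are counted from 1 at the first base of the palindrome. Neither window overlaps an exon of the NFI genes. The window of Nfix site 5 overlaps the end of the 532 bp exon, while Nfib site 18 and both Nfix windows hold no exact half-site.

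Nfic is the gene targeted in the knock-out. Over its length the wild-type ChIP counted 50 tags, the knock-out ChIP 66 and the input 151. Its 11 exon blocks of 6534 bp in all had 7, 9 and 23 tags. The 532 bp exon had 0, 0 and 5 tags, so the wild-type library was as empty there as the knock-out library. The last exon block of 4886 bp had 6, 8 and 8 tags. No exon block with more than 1 wild-type tag was without knock-out tags. The tags over Nfic do not check the label of the knock-out library.

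The sites inside Nfia followed its introns, counted here in Nfia-204, its longest transcript. In the values below, tags in 300 bp centred on the site are given with the wild-type ChIP first, then the knock-out ChIP and then the input, and the genome average was 0.393, 0.367 and 0.481 tags per 300 bp. Since the wild-type tags chose the sites, their excess at the sites is no finding. Nfia site 1 (chr4:97361998-97362013) had 2, 1 and 0 tags. This is the only Nfia site outside the gene, 77420 bp upstream of it. Nfia site 2 (chr4:97443110-97443125) had 1, 6 and 1 tags. It lies in the first intron of Nfia-005, at -1182 bp from the main cluster of transcription start sites (TSS), where minus is upstream, and also inside the neighbouring gene E130114P18Rik, which is annotated on the minus strand. It was the only one of the 55 sites with more than 3 knock-out tags. The share of all 39807 sites with more than 3 is not given here. Their highest number of knock-out tags was 292, so the number at Nfia site 2 is not ranked among all sites.

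Intron 2 of Nfia, which is 173 kb long and follows the 532 bp exon, held 9 sites. Nfia site 3 (chr4:97473561-97473576) had 5, 0 and 0 tags. Nfia site 4 (chr4:97482349-97482364) had 2, 0 and 2 tags. Nfia site 5 (chr4:97494382-97494397) had 3, 0 and 0 tags. Site 3 had the most wild-type tags in Nfia, and none of the 3 had a knock-out tag. Nfia site 6 (chr4:97506422-97506437) had 1, 0 and 1 tags. Nfia site 7 (chr4:97544470-97544485) had 4, 0 and 0 tags. Nfia site 8 (chr4:97583438-97583453) had 3, 2 and 0 tags. Site 8 had the largest number of knock-out tags in this intron. Nfia site 9 (chr4:97590352-97590367) had 2, 0 and 2 tags. Nfia site 10 (chr4:97593470-97593485) had 3, 1 and 0 tags. Nfia site 11 (chr4:97597356-97597371) had 3, 1 and 2 tags. These 3 form the closest group in the gene. Their knock-out and input tags were at most 2 at each site.

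The remaining 9 sites of Nfia lay in introns 3 to 11. Nfia site 12 (chr4:97623633-97623648) had 2, 0 and 3 tags. Nfia site 13 (chr4:97648422-97648437) had 4, 0 and 1 tags. Nfia site 14 (chr4:97669971-97669986) had 4, 0 and 0 tags. They lie in introns 3, 3 and 4, and none had a knock-out tag. Nfia site 15 (chr4:97684408-97684423) had 4, 0 and 2 tags. Nfia site 16 (chr4:97701552-97701567) had 3, 0 and 1 tags. Nfia site 17 (chr4:97768409-97768424) had 2, 0 and 0 tags. They lie in introns 5, 6 and 10, again without a knock-out tag. Nfia site 18 (chr4:97775997-97776012) had 3, 1 and 1 tags. Nfia site 19 (chr4:97779663-97779678) had 4, 0 and 0 tags. Nfia site 20 (chr4:97787774-97787789) had 3, 0 and 0 tags. Site 18 lies in intron 10, site 19 in intron 11 of Nfia-204 and in an exon of another transcript, outside its coding sequence, and site 20 in intron 11. Site 20 lies 348356 bp from the gene start, and the rest of the gene beyond it held no site.

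Nfib has a far upstream start, that of Nfib-010, and a cluster of starts about 200 kb further on, from which its other coding transcripts begin. Both parts of the gene held sites. Nfib site 23 (chr4:82352520-82352535) had 4, 0 and 0 tags. It lies 873 bp upstream of Nfib-010 and is the only site of the 4 loci within 5 kb upstream of the outermost start of its gene, a position that 11.8% of all protein-coding genes had a site in. Nfib site 22 (chr4:82332363-82332378) had 4, 1 and 0 tags. Nfib site 21 (chr4:82330272-82330287) had 3, 0 and 0 tags. Both lie near the beginning of the long first intron of Nfib-010. Nfib site 20 (chr4:82283419-82283434) had 4, 0 and 1 tags. Nfib site 19 (chr4:82260777-82260792) had 4, 0 and 1 tags. Nfib site 18 (chr4:82198217-82198232) had 7, 1 and 0 tags. Site 18 had the most wild-type tags of all 55 sites, and it stands at -46541 bp from the nearest start, upstream of it.

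Downstream of the main starts of Nfib, introns 1 to 3 of Nfib-001 held 11 sites. Nfib site 17 (chr4:82149428-82149443) had 2, 2 and 1 tags. Nfib site 16 (chr4:82147929-82147944) had 2, 2 and 1 tags. These 2 lie in the 5.96 kb of intron 1, and both had as many knock-out tags as wild-type tags. Nfib site 15 (chr4:82139554-82139569) had 4, 0 and 0 tags. Nfib site 14 (chr4:82112713-82112728) had 4, 3 and 0 tags. Nfib site 13 (chr4:82110906-82110921) had 3, 1 and 1 tags. Site 14 had the most knock-out tags at Nfib and no input tag. Nfib site 12 (chr4:82082516-82082531) had 2, 0 and 1 tags. Nfib site 11 (chr4:82080507-82080522) had 3, 0 and 0 tags. Nfib site 10 (chr4:82079880-82079895) had 2, 0 and 1 tags. They lie close together in intron 2 with no knock-out tag, and sites 10 and 11 are 627 bp apart. Nfib site 9 (chr4:82040635-82040650) had 2, 0 and 1 tags. Nfib site 8 had 4, 1 and 0 tags. Nfib site 7 (chr4:82017799-82017814) had 2, 0 and 1 tags. Site 9 lies in intron 2 and sites 8 and 7 in intron 3.

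The 3′ end of Nfib held 3 sites inside and 3 beyond the gene. Nfib site 6 (chr4:81962904-81962919) had 2, 0 and 0 tags. Nfib site 5 (chr4:81956193-81956208) had 3, 1 and 1 tags. Nfib site 4 (chr4:81940537-81940552) had 3, 2 and 2 tags. Sites 6 and 5 lie in intron 10, and site 4 lies in the last exon outside the coding sequence. Nfib site 3 (chr4:81934508-81934523) had 2, 0 and 1 tags. Nfib site 2 (chr4:81879385-81879400) had 3, 0 and 1 tags. Nfib site 1 (chr4:81865399-81865414) had 2, 0 and 0 tags. These lie 1562, 56685 and 70671 bp downstream of the gene, and none had a knock-out tag.

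Nfic and Nfix each had 6 sites, of which 1 and 3 lay inside the gene. Nfic site 4 (chr10:80879764-80879779) had 3, 1 and 7 tags. It is the only site inside Nfic, in intron 2, which follows the 532 bp exon, and its window contained 69.7% G and C, the highest share of the 55. Nfic site 5 (chr10:80900863-80900878) had 2, 0 and 1 tags. Nfic site 6 (chr10:80947500-80947515) had 1, 2 and 0 tags. They lie 7120 and 53757 bp upstream of Nfic. Nfic site 3 (chr10:80857565-80857580) had 4, 0 and 2 tags. Nfic site 2 (chr10:80839595-80839610) had 3, 0 and 0 tags. Nfic site 1 (chr10:80780706-80780721) had 2, 0 and 1 tags. Site 3 lies 1359 bp downstream of Nfic in 2210404O07Rik, site 2 in Fzr1, which encodes an activator of the anaphase-promoting complex, and site 1 in Pip5k1c, which encodes a phosphoinositide kinase.

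Nfix site 6 (chr8:87310223-87310238) had 3, 1 and 0 tags. Nfix site 5 (chr8:87295661-87295676) had 3, 1 and 0 tags. Nfix site 4 (chr8:87249523-87249538) had 2, 0 and 0 tags. These 3 lie inside Nfix, in introns 1, 2 and 6 of Nfix-002, and none had an input tag. Site 5 stands at the edge of the 532 bp exon and site 4 also lies in the overlapping gene G430095P16Rik. Nfix site 3 (chr8:87189165-87189180) had 5, 1 and 2 tags. Nfix site 2 (chr8:87159697-87159712) had 2, 0 and 2 tags. Nfix site 1 (chr8:87139393-87139408) had 4, 1 and 0 tags. These 3 lie downstream of Nfix, sites 2 and 1 in Cacna1a, which encodes a calcium channel subunit. Site 3 had the most wild-type tags in the locus.

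**Figure D1:**
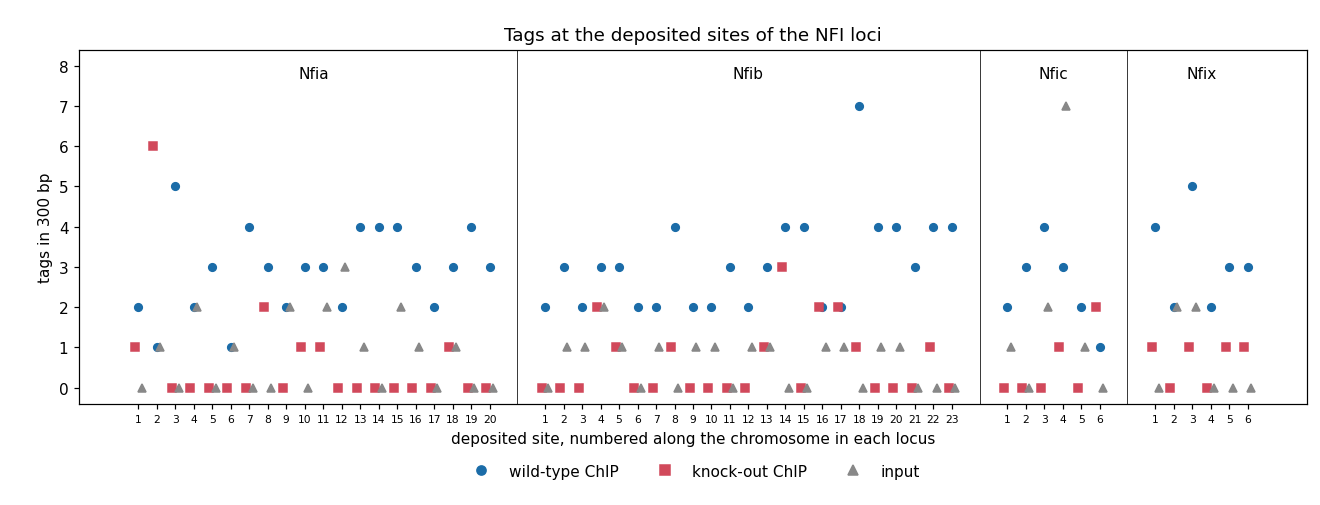
Tags in 300 bp at each of the 55 in vivo sites of the NFI loci (y axis, tags) against the site, numbered along the chromosome within each locus (x axis), for the wild-type ChIP (circles), the knock-out ChIP (squares) and the input (triangles), 1 library each. Nfia site 2 has 6 knock-out tags, Nfib site 18 has 7 wild-type tags and Nfic site 4 has 7 input tags, while the other sites have at most 3 knock-out tags and 3 input tags.

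Summed over the 55 sites, the wild-type ChIP counted 163 tags, the knock-out ChIP 33 and the input 45. After scaling by the library totals, the knock-out ChIP over the input was 0.960 (0.594 to 1.54), and 1.12 (1.10 to 1.14) at all 39807 sites. No difference between the knock-out ChIP and the input was detectable at the NFI loci at this depth. At 34 of the 55 sites the knock-out ChIP had no tag, against 58.3% of all sites, and at 26 the input had none, against 53.6% of all sites. At 4 sites the knock-out tags were at least as many as the wild-type tags, against 7.82% of all sites, and at 7 the input tags were, against 8.0%. With 55 sites, none of these 4 counts is far from the share in all sites. By locus, the knock-out ChIP over the input at the sites was 0.982 (0.424 to 2.21) at Nfia, 1.31 (0.579 to 2.96) at Nfib, 0.357 (0.0640 to 1.35) at Nfic and 1.31 (0.244 to 7.03) at Nfix, with intervals that overlap.

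In 300 bp without a shift of the tags, 3 of the 55 sites had 5 or more wild-type tags, the number the authors required. With the authors' shift of 75 bp, all 55 reached it when counted in 600 bp, a wider window than the authors' 300 bp. In 300 bp with that shift, the 55 sites had 181 wild-type tags in all. The authors' call itself was not repeated here. The highest site of the NFI loci had 7 tags in 300 bp and the highest of all sites had 288, with a median of 3.00 in both sets.

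Nfia site 2 departed from the other sites of the 4 loci in its knock-out tags. In 1000 bp around the site there were 5 wild-type, 12 knock-out and 1 input tags. Within 500 bp of the exact palindrome, all 5 forward knock-out tags lay before it and all 7 reverse knock-out tags lay after it. With every read counted, the 300 bp at the site had 4 wild-type, 24 knock-out and 1 input reads, so that a knock-out tag was read several times on average. Within the same 500 bp, the wild-type ChIP had 3 of 4 forward tags before the palindrome and 2 of 2 reverse tags after it. The input had 1 tag there. Further out, up to 1000 bp from the palindrome, the knock-out ChIP had forward tags at -991, -849 and -845 bp. Its reverse tags there, at -783, -669 and -603 bp, lay before the palindrome and not after it. The input had tags at -940 and -793 bp in this outer part, and the wild-type ChIP had none. The genome holds 159 exact palindromes, with a median of 2.00 wild-type, 1.00 knock-out and 0 input tags in 300 bp. The palindrome of Nfia had 2, 6 and 0 tags, and of the 159, 1 had more knock-out tags and 5, itself included, had as many. At 33 of the 159 the knock-out tags outnumbered the wild-type tags, and at 87 the reverse held. Of the 24 exact palindromes within 150 bp of an in vivo site, the knock-out tags were more than the wild-type tags at 6, the one of Nfia included.

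**Figure D2:**
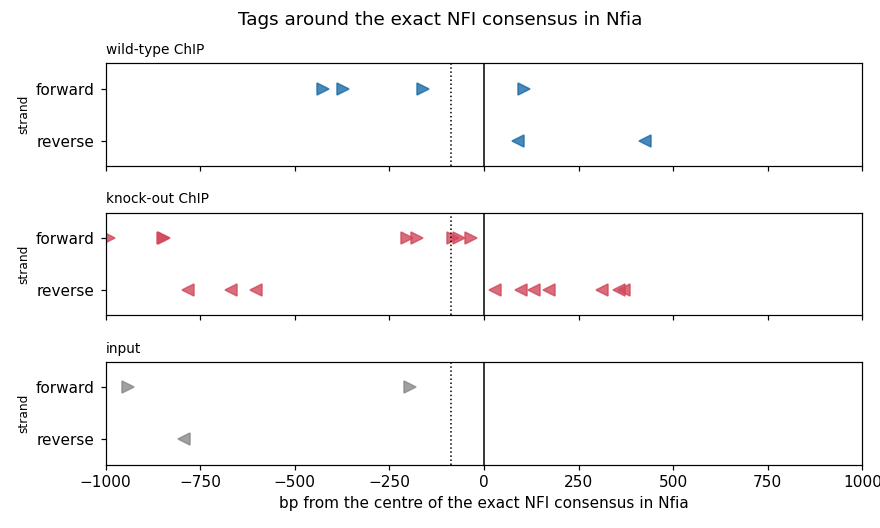
Tags by strand (y axis) and distance in bp from the centre of the exact NFI palindrome in Nfia (x axis), for the wild-type ChIP, the knock-out ChIP and the input, 1 library each. The solid line is the palindrome and the dotted line the deposited site 87 bp before it. Within 500 bp all 5 forward knock-out tags lie to the left and all 7 reverse knock-out tags to the right of the palindrome. Beyond 500 bp, reverse knock-out tags at -783, -669 and -603 bp lie to the left.

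A palindrome with at most 2 mismatches was found at 3 of the 55 sites, or 5.45% (1.14 to 15.1), against 3.01% of all in vivo sites. With at most 3 mismatches it was found at 6 sites, against 15.8%. An exact half-site on either strand was found at 16 of the 55, or 29.1% (17.6 to 42.9), against 18.6% of all sites. The intervals of the palindrome share and of the half-site share both include the share of all sites. All 3 palindromes were at sites inside the genes. The median GC content of the windows was 44.7% at the NFI loci and 42.0% at all sites, with 43.0% at Nfia, 44.7% at Nfib, 55% at Nfic and 56.8% at Nfix.

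In density, Nfia and Nfib stood above most genes. Inside the genes there were 4.43 sites per 100 kb (2.67 to 6.91) in Nfia and 4.57 (2.75 to 7.14) in Nfib, against 1.56 over the genome and 2.04 over all protein-coding genes. Nfic had 2.87 (0.0727 to 16), which rests on 1 site, and Nfix 2.99 (0.616 to 8.73), which rests on 3 sites. The counts of both are too small to tell them from the genome, or from Nfia and Nfib. A site was found in 35.3% of all protein-coding genes. Of the 2401 protein-coding genes of 100 kb or more, whose median was 1.83 sites per 100 kb, 159 were denser than Nfia, 142 denser than Nfib and 531 denser than Nfix. In number of sites, 51 genes of all lengths had more than the 19 of Nfia and of Nfib. The median gap between neighbouring sites was 14437 bp at Nfia and 15556 bp at Nfib, and 35513 bp over all sites.

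Over the whole gene bodies, the wild-type ChIP was 1.06 times the input (0.963 to 1.17) at Nfia and 1.13 times (1.02 to 1.25) at Nfib. It was 0.405 times (0.288 to 0.561) at Nfic and 0.620 times (0.510 to 0.750) at Nfix. Nfic and Nfix were past a 1.5-fold difference in the lower direction, as were 29.6% of the 16553 protein-coding genes with at least 20 tags in the pair. None of the 4 was past it in the higher direction, as were 3.70% of genes. The 2 genes with the lower ratios were the GC-rich ones, since the GC content was 41.3% in Nfia, 41.7% in Nfib, 57.7% in Nfic and 53.1% in Nfix. When all genes were put in 5 classes of GC of equal size, the class of Nfia and Nfib had a median ratio of 0.972 and that of Nfic and Nfix of 0.490. Nfib and Nfix lay above the median of their class by more than counting error, and the intervals of Nfia and Nfic included it. At Nfix this rested on a lower limit of 0.510 against 0.490. With reads of no mismatch alone Nfix had 0.525 (0.424 to 0.648), an interval that includes 0.490. The class median was not calculated in that setting. The part of GC content in these ratios was not tested. When scaled by the median ratio of all genes, Nfix had 0.727 and was no longer past 1.5-fold.

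The knock-out ChIP over the wild-type ChIP was 0.996 (0.898 to 1.11) at Nfia, 1.05 (0.943 to 1.16) at Nfib, 1.41 (0.963 to 2.08) at Nfic and 1.28 (1.03 to 1.58) at Nfix. None of the 4 was past 1.5-fold, as were 9.75% of the 14966 genes in the higher and 8.93% in the lower direction. The knock-out ChIP over the input was 1.06 (0.957 to 1.17) at Nfia, 1.18 (1.07 to 1.31) at Nfib, 0.572 (0.422 to 0.769) at Nfic and 0.792 (0.660 to 0.949) at Nfix. Here Nfic alone was past 1.5-fold in the lower direction, against 28.8% of genes, and none was past it in the higher direction, against 3.90%. Nfic passed 1.5-fold in the knock-out ChIP over the wild-type ChIP, with 1.55, when every uniquely mapped read was counted, and had 0.667 in the knock-out ChIP over the input when scaled by the median gene. Both ratios share the knock-out library, and the ratios over the input share the input. At each gene the intervals of the ratios over the input in wild-type and knock-out cells overlapped, and at Nfic and Nfix both lay below 1.

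**Figure D3:**
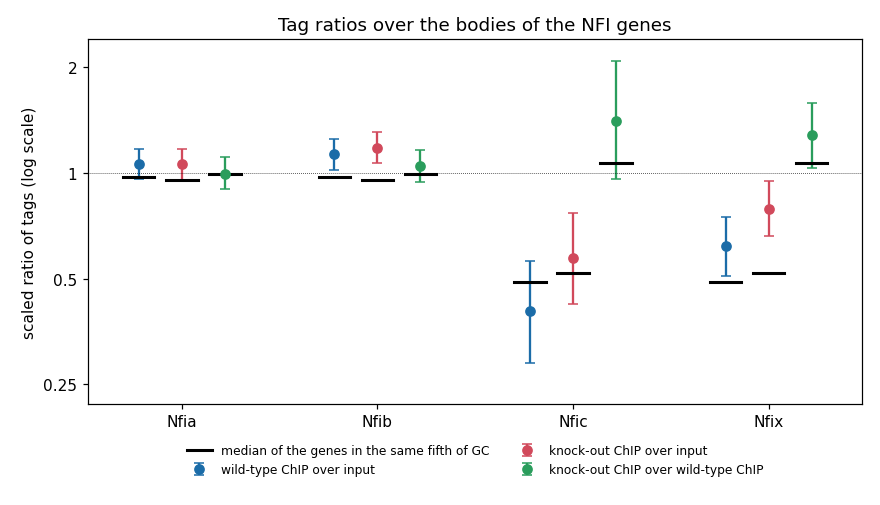
Scaled ratio of tags over the gene body (y axis, log scale) for each NFI gene (x axis) in the 3 comparisons, with 95% exact binomial intervals for counting error and, as black bars, the median of all protein-coding genes in the same class of GC content. Nfia and Nfib lie near 1, while Nfic and Nfix lie below 1 in both comparisons with the input, at 0.405 and 0.620 for the wild-type ChIP.

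Around the main TSS of Nfia, Nfib and Nfix the input had more tags than both ChIP libraries. In 2 kb around the TSS, Nfia had 3, 4 and 21 tags in the same order as above, and Nfib had 7, 1 and 25. Nfic had 3, 9 and 9 tags and Nfix 0, 2 and 32. The genome average was 2.62, 2.45 and 3.21 tags per 2 kb, so the input was above it at all 4 starts, and the knock-out ChIP equalled the input in number at Nfic. The sum over the 4 starts gave a wild-type ChIP over input of 0.183 (0.0936 to 0.329) and a knock-out ChIP over input of 0.241 (0.132 to 0.413). At the outermost starts of all 22367 protein-coding genes the same ratios were 0.312 and 0.339, and at the 2343 of them with 60% or more G and C they were 0.126 and 0.152. The starts of the NFI genes had 60.1% to 68.3%. These were the starts of Nfia-204, Nfib-001, Nfic-001 and Nfix-002. No in vivo site lay within 1 kb of them. The nearest were 1219 bp away at Nfia, 2239 bp at Nfib, 10161 bp at Nfic and 14013 bp at Nfix. Some other starts had nearer sites. Nfib site 23 lies 873 bp from the start of Nfib-010, and Nfix site 5 lies 1627 bp from that of Nfix-001. RefSeq promoter windows of 300 bp (GRCm38.p6) were held for Nfia, Nfic and Nfix, 6 in all. None contained an exact half-site, which 14.1% of all 32851 windows did. The Nfic window lay at its main TSS, 3.83 kb from the gene start. Those of Nfix lay 20.3 to 27.5 kb from the gene start, away from its main TSS. Their own starts were 1106 to 6249 bp from the nearest in vivo site. The window of Nfia was not placed on mm9, and none was held for Nfib.

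Along the genes in bins of 5 kb, the genome averages of the wild-type ChIP, the knock-out ChIP and the input were 6.55, 6.12 and 8.01 tags. Inside Nfia the wild-type ChIP had 1 to 20 tags per bin with a median of 9, the knock-out ChIP 0 to 25 with a median of 7 and the input 3 to 38 with a median of 9. Inside Nfib the ranges were 0 to 22, 1 to 24 and 2 to 39 tags, with medians of 9, 8 and 9. In both genes the highest input bin was the one that begins at or next to the main TSS. The 2 highest knock-out bins of Nfia had 25 tags each. The bin of site 2 and the main TSS had 11, 25 and 15 tags, and a bin 98.08 kb from the gene start, without a site, had 7, 25 and 23. The highest wild-type bin of Nfib, with 22, 13 and 8 tags, held site 18.

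**Figure D4:**
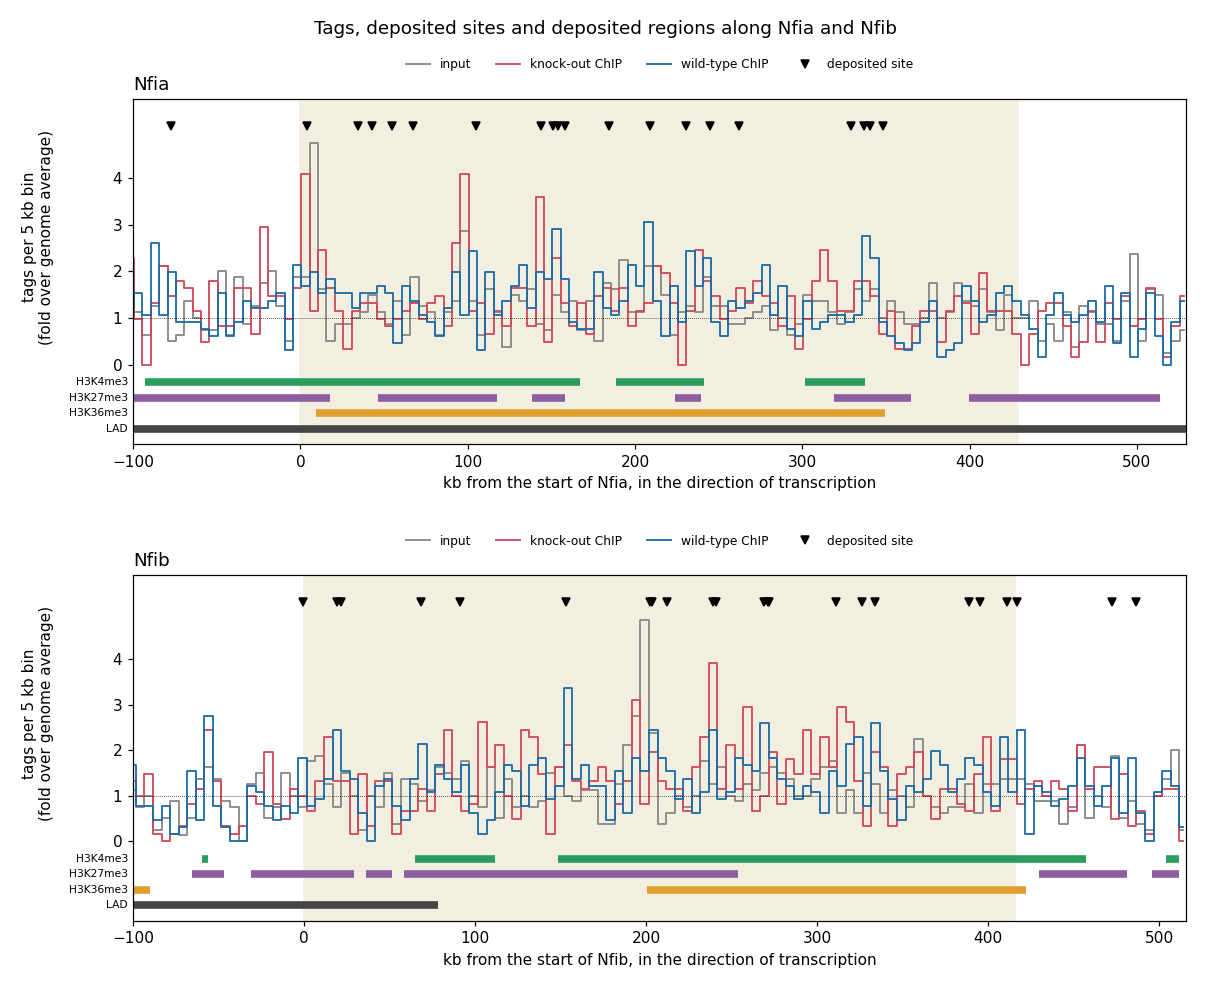
Tags per 5 kb bin as fold over the genome average (y axis) against the distance in kb from the start of Nfia (top) and Nfib (bottom) in the direction of transcription (x axis), for the input, the knock-out ChIP and the wild-type ChIP, 1 library each. The shaded span is the gene, triangles are in vivo sites and bars are deposited H3K4me3, H3K27me3, H3K36me3 and lamina-associated (LAD) regions, and the sites of Nfib spread over both the upstream part and the part covered by H3K36me3.

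Of the 116 bins of the Nfia locus with at least 10 tags in the pair, the wild-type ChIP over the input was 2-fold or more higher in 12 and lower in 12. At Nfib it was higher in 21 and lower in 11 of 105 bins. At Nfic it was higher in 1 and lower in 25 of 47 bins, and at Nfix higher in 3 and lower in 19 of 59. Over all bins of the genome, 14.8% were higher and 14.5% lower, so that Nfib had somewhat more higher bins, at 20%, and Nfic and Nfix more lower bins, at 53.2% and 32.2%. For the knock-out ChIP over the input, 24 of 108 bins were higher at Nfib, or 22.2%, and 32 of 47 lower at Nfic, or 68.1%, against 14.6% and 15.5% over the genome. For the knock-out ChIP over the wild-type ChIP, 13 of 53 bins were higher at Nfix, or 24.5%, against 15.1% over the genome, and 9 of 41 lower at Nfic, or 22%, against 17.2%. All 9 of these lay in the flanks, and inside Nfic 1 of 8 bins was higher and 0 lower. Neighbouring bins are not independent, and these shares are a description.

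The bins at the ends of the order differ between the genes. The order holds among bins with at least 10 tags in the pair, and some bins with fewer tags had lower ratios. At Nfia the 3 highest ratios of the wild-type ChIP over the input were 3.98, 3.98 and 3.67, and the first of these bins holds site 1. At Nfib the 3 highest were 4.90 (1.32 to 27), in the bin that contains the 532 bp exon, 3.67 (1.27 to 12.9), with site 8, and 3.37 (1.44 to 8.74), with site 18. Within the first of these bins, the exon itself held 2 of the 12 wild-type tags and 2 of the 3 input tags. At Nfic the highest was 2.24 (0.761 to 7.39), at the 3′ end with site 3, and then 1.68 and 1.60, and at Nfix the 3 highest were all 2.04, of which 2 held sites 5 and 6. As wild-type tags chose the sites, their presence in these bins is no independent support. Of the 3 lowest bins, those of Nfia had ratios of 0.0644, 0.262 and 0.272 and those of Nfib 0.122, 0.282 and 0.288. Those of Nfic had 0.0429, 0.117 and 0.133, the last with 5, 10 and 46 tags at the start of the gene, and those of Nfix 0.102, 0.136 and 0.136. None of these 12 low bins held an in vivo site. They had few wild-type tags and a site needed at least 5, so this lack of sites is no finding.

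**Figure D5:**
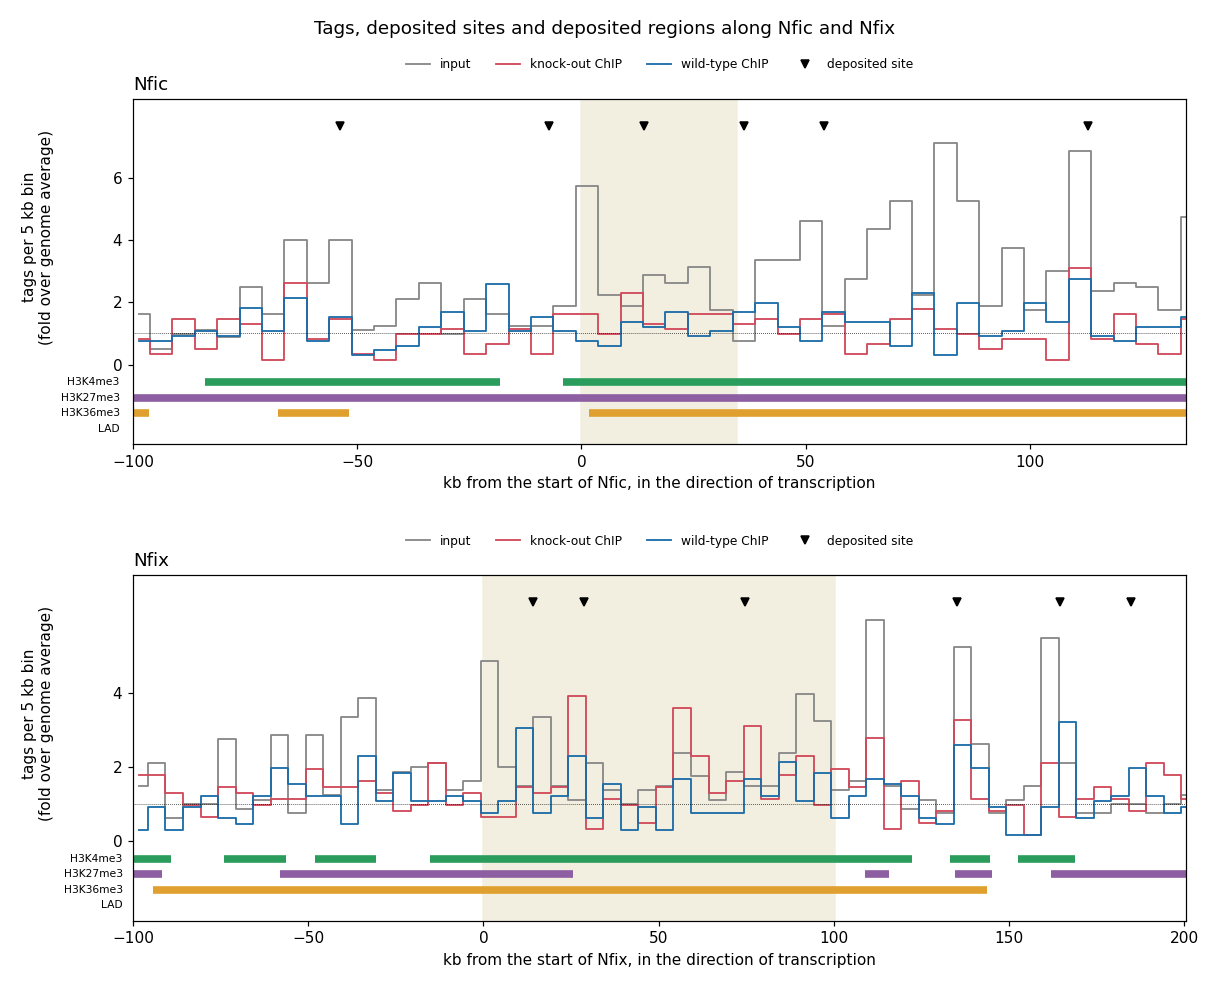
Tags per 5 kb bin as fold over the genome average (y axis) against the distance in kb from the start of Nfic (top) and Nfix (bottom) in the direction of transcription (x axis), for the input, the knock-out ChIP and the wild-type ChIP, 1 library each. The shaded span is the gene, triangles are in vivo sites and bars are deposited histone mark regions, and the input rises above both ChIP libraries in most bins of the Nfic locus and at the start of Nfix.

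The authors deposited regions rich in 3 histone marks in mouse embryonic fibroblasts, cut by a partitioning tool, together with lamina-associated domains (LAD) measured in human Tig3 fibroblasts and carried over to mm9. H3K4me3 is a mark of active promoters, H3K36me3 of transcribed gene bodies and H3K27me3 of genes held silent by Polycomb proteins. All 4 NFI genes overlapped long H3K4me3 regions. The longest was 309 kb at Nfib, from 148 to 457 kb from the gene start and so over its main starts and the rest of the gene, and 34th in length among 15846 regions. It was 260.1 kb at Nfia, from -92.8 to 167 kb, 156 kb at Nfic and 137 kb at Nfix. A region of this mark at least as long as that of Nfix overlapped 4.22% of all protein-coding genes and 11.7% of those of 100 kb or more.

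The H3K36me3 regions began near the main TSS of Nfia, Nfib and Nfic. At Nfia the region ran from 9.52 to 349.7 kb, where the main starts lie at 4.87 to 5.17 kb and 5 of the 11 coding transcripts end at 346 kb, and it held 18 of the 20 sites. At Nfib it ran from 201 to 422 kb, where the main starts lie at up to 200.4 kb and the gene ends at 416 kb, and it held 14 of the 19 sites inside the gene. The other 5 lay in the upstream intron of Nfib-010. At Nfic it ran from 1.67 to 139 kb and at Nfix from -94.3 to 144 kb, so that both went past the gene. In the H3K36me3 regions there were 5.29 sites per 100 kb at Nfia, 6.48 at Nfib, 3.28 at Nfic and 1.68 at Nfix, against 2.83 in all regions of this mark.

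H3K27me3 regions covered the whole Nfic locus, in 1 region of 484 kb, and 61.2% of the Nfia locus, 58.0% of the Nfib locus and 49.1% of the Nfix locus, against 40.3% of the genome. At Nfia the region of 369 kb upstream of the gene reached 17.5 kb into it, over the main starts, and at Nfib a region of 195 kb ran from 58.4 to 254 kb, also over the main starts. A LAD of 2395 kb covered the whole Nfia locus. At Nfib a LAD covered the upstream 18.9% of the gene and ended at 78.5 kb, ahead of the main starts, and none overlapped the Nfic and Nfix loci.

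Of the 55 sites, 43 (78.2%) lay in H3K4me3 regions, which covered 63.6% of the bases of the 4 loci, and 42 (76.4%) in H3K36me3 regions, which covered 54.1%. The 95% intervals of these shares were 65.0 to 88.2 and 63.0 to 86.8. For H3K27me3 it was 36 sites (65.5%) against 63.2% of the bases, and for the LAD 24 sites (43.6%) against 45.4%. Summed over the 4 loci, the share of sites in the regions of the 2 marks of active genes was above the share of bases. By locus it was below at Nfic for H3K4me3 (83.3% on 87.2%) and at Nfix for H3K36me3 (66.7% on 79.3%), and otherwise above. These bases include the flanks, while 42 of the 55 sites lay inside the genes. Inside Nfia and Nfib alone, H3K4me3 held 73.7% and 89.5% of the sites on 59.5% and 75.6% of the bases. For H3K36me3 it was 94.7% and 73.7% on 79.3% and 51.7%. For H3K27me3 it was 68.4% and 52.6% on 46.7% and 57.6%, so a share of sites above that of bases was not particular to the marks of active genes at Nfia. For the LAD it was 100% and 15.8% on 100% and 18.9%. Summed over the 4 loci, the share of sites for H3K27me3 and the LAD was near that of bases. Over the genome 42.6% of all deposited sites lay in H3K4me3 regions, which covered 18.8% of the bases, and 35.4% in H3K36me3 regions, which covered 19.4%. For H3K27me3 it was 54.4% of the sites on 40.3% of the bases, and for the LAD 32.3% on 40.1%. In 12 cases a site lay in H3K4me3 and H3K36me3 regions alone, in 12 also in H3K27me3, and in 10 in all 4 kinds, and only 1 site, at Nfib, lay in none. No entry of the deposited lists of microRNAs with an NFI site fell in the 4 loci.

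A list of 14 other genes linked to NFI or to TGF-beta and skeletal biology was set beside the NFI genes. Of these, 4 had a site in the gene, against 35.3% of all genes, namely Col1a2, a chain of type I collagen, with 6 sites, Ski, a repressor of TGF-beta signalling, with 3, and Dspp, a dentin protein, and Hes1, a target of Notch signalling, with 1 each. Sites within 5 kb upstream were present at Hes1 and Col1a1, or 2 of 14, against 11.8%. The wild-type ChIP over the input was past 1.5-fold lower in 6 of 13 genes with enough tags and higher in none, against 29.6% and 3.70% of all genes, with Sox9, a regulator of cartilage formation, at 0.269 (0.126 to 0.524) and Pdgfa, a growth factor, at 0.324 (0.224 to 0.459). Tgfb1, Cdkn1a, Hes1 and Foxa1, which were also lower, are with Pdgfa in the GC class with a median ratio of 0.490. Sox9 is in a class with a median of 0.748. The part of GC content was not tested here either. For the knock-out ChIP over the wild-type ChIP, 1 of 11 was past 1.5-fold higher and none lower, against 9.75% and 8.93% of all genes, so the count is near the background. This gene was Sp7, a regulator of bone formation, at 1.60 (0.818 to 3.23), an interval that includes 1. For the knock-out ChIP over the input, 6 of 13 were lower and 1, again Sp7, was higher, against 28.8% and 3.90% of all genes.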

How the data were processed

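NFI ChIP-Seq was done in primary fibroblasts of mouse embryos, wild-type or lacking NFI-C, with an input of the former, 1 library each. The authors mapped reads to mm9 with ELAND and deposited 1 line per read, with no count or normalisation. They deposited in vivo sites called on the wild-type library alone, from windows of 300 bp with at least 5 tags shifted by 75 bp and a repeat filter, as positions without height. The deposited mark and lamina regions and microRNA lists are positions only.

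From these, reads with a unique match were placed at their 5′ end on chromosomes 1 to 19, X and Y, counting each position and strand at most once (Python 3.11.15, numpy 2.4.6, scipy 1.17.1, pysam 0.24.0, matplotlib 3.10.9). Ratios were scaled by the tag totals. A gene was called past 1.5-fold with at least 20 tags in the pair, and a 5 kb bin past 2-fold with at least 10. The loss of repeated positions lowers the values of the densest places. Genes and exons are those of the NCBIM37 annotation. The counting was tested on simulated data. Named were the 4 genes, genes that hold one of their sites, the 14 listed genes, and sites by the rules given with the sequences. Of the bins with at least 10 tags in the pair, the 3 highest and 3 lowest of each locus were named as well. The members and lists were chosen with earlier results of these data known. Reads without a unique match were not used. The sequence of 1 further site with a palindrome match is not reported here.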

Additional observations from a re-analysis of the deposited data

How the results depend on the processing

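No gene past 1.5-fold turned its direction under another setting. In all, 136 values were taken again under other settings, for gene ratios, sites, bins, palindromes and regions. Of these values, 114 stayed within the spread allowed for counting error or within 1.5 times the reported value. They share the same libraries and are not independent, and 3 of them are palindrome settings chosen after the data were seen. Scaled by the median gene, the wild-type ChIP over input was 1.25 at Nfia and 1.33 at Nfib, and the knock-out ChIP over input 1.23 and 1.38. With that scaling Nfix (wild-type ChIP over input 0.727) and Nfic (knock-out ChIP over input 0.667) were no longer past 1.5-fold. With every uniquely mapped tag, the wild-type ChIP over input was 0.284 at Nfic and 0.501 at Nfix, the knock-out ChIP over wild-type ChIP passed 1.5-fold at Nfic with 1.55, and 67 bins were higher and 60 lower in the knock-out ChIP over wild-type ChIP. With the wild-type ChIP reads split by read name into 3 sets, Nfic had 0.437, 0.363 and 0.276 for the wild-type ChIP over input. With 100 kb on both sides, Nfic had 0.866 for the knock-out ChIP over wild-type ChIP, on the other side of 1 from its reported value, and 0.414 for the knock-out ChIP over input. In bins of 10 kb, which are fewer, 9 were higher and 33 lower for the wild-type ChIP over input, 12 and 11 for the knock-out ChIP over wild-type ChIP, and 7 and 25 for the knock-out ChIP over input. For the genes alone, Nfic had 1 site and Nfix 3, H3K27me3 covered 25.4% of Nfix and the LAD 18.9% of Nfib. With at most 3 mismatches, 6 sites held the palindrome. The cause of the changes under these settings, those with bins of 10 kb included, was not tested. At 55 sites with 33 knock-out tags, only large differences are detectable, and with 1 library per group the spread between cultures is unknown. No paired analysis was possible because each group had 1 library and no test was made.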

Other observations

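Palindromes with at most 2 mismatches were also counted wherever they lay in the 4 NFI loci, a choice made after the tags at the exact palindrome of Nfia had been seen. There were 50, with 15 at Nfia, 19 at Nfib, 8 at Nfic and 8 at Nfix. In 300 bp around them the wild-type ChIP had 32 tags in all, the knock-out ChIP 60 and the input 35. After scaling, the knock-out ChIP over the wild-type ChIP was 2.01 (1.29 to 3.18), the knock-out ChIP over the input 2.24 (1.46 to 3.51) and the wild-type ChIP over the input 1.12 (0.671 to 1.86). At all 105791 such palindromes of the genome, the knock-out ChIP over the wild-type ChIP was 1.01 (1.00 to 1.03), the knock-out ChIP over the input 1.29 (1.27 to 1.30) and the wild-type ChIP over the input 1.27 (1.25 to 1.28). The knock-out tags outnumbered the wild-type tags at 40% of the palindromes in the NFI loci and at 22.7% of those in the genome, and the reverse held at 20% and 24.3%.

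By gene, the knock-out ChIP over the wild-type ChIP at the palindromes was 3.08 (1.33 to 7.95) at Nfia, 1.96 (0.929 to 4.35) at Nfib, 1.07 (0.350 to 3.27) at Nfic and 1.87 (0.476 to 8.72) at Nfix. Over all tags of the genes with 100 kb on both sides, where the palindromes were counted, the same ratio was 1.01, 1.04, 0.866 and 1.22. The knock-out ChIP over the input at the palindromes was 3.35 (1.49 to 8.22), 3.60 (1.54 to 9.35), 1.5 (0.474 to 4.85) and 0.833 (0.274 to 2.35) in the same order of genes. The most knock-out tags were at a palindrome with 2 mismatches in Nfia, chr4:97535950-97535964, where the wild-type ChIP had 1 tag, the knock-out ChIP 9 and the input 2. In 1000 bp around it there were 2, 16 and 9 tags in that order. It lies in the 5 kb bin 98.08 kb from the gene start, which had 7, 25 and 23 tags. These are 1.07, 4.08 and 2.87 times the genome average, so the input was also raised there. The palindrome with the next most knock-out tags was the exact one of Nfia, whose 6 knock-out tags were seen before this count was chosen. Both are part of the Nfia value, in which the knock-out ChIP counted 23 tags and the wild-type ChIP 8. A ratio for Nfia without them was not calculated, so its interval above 1 is no separate result for this gene. In 2 further settings, also chosen after the data were seen, the ratio over the 4 loci was 1.66 (1.02 to 2.75) without the 2 palindromes with most knock-out tags and 1.59 (1.22 to 2.09) in 1000 bp. The other exact palindrome of the 4 loci lies downstream of Nfic, at chr10:80844891-80844905, with 0, 1 and 0 tags in the same order and no in vivo site within 150 bp. Each of these values rests on 1 library per group.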
